A study of Mus musculus with 44 samples.

Results

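Adding back wild-type Smarcc2 to depolarized cortical neurons with a Smarcc2 knockout was compared with vector in the same knockout, by ATAC-seq, which reads the DNA that a transposase can reach. The comparison rests on 4 of the 44 libraries of the series: 2 libraries with a Smarcc2 knockout and wild-type Smarcc2 added back, and 2 libraries with a Smarcc2 knockout and vector. They were chosen by their labels. All 4 came from primary neurons of mouse cortex taken at embryonic day 16.5 and grown for 18 days in vitro, silenced overnight with 1 µM tetrodotoxin and 100 µM D-AP5. KCl at 50 mM depolarized them for 30 min, with DNase in the wells during the treatment. Both genotypes carried CRISPR guide RNAs against Smarcc2, so the reference is a knockout with vector and not an unmodified neuron. The strain and the promoter of the add-back construct are not given in the sources used here. The experiment also held the same 2 genotypes without KCl, neurons with a non-targeting guide, and neurons with the S586A or S586E form of Smarcc2 added back, each with 2 libraries per state, and all 20 libraries entered 1 model. Per the labels a replicate is the cortex of 1 embryo, but no library is tied to an embryo, so the p-values below measure the spread between libraries, which may be technical.

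Smarcc2, also called BAF170, is a core scaffold subunit of the BAF complexes, remodelers that use ATP to slide or evict nucleosomes. In neurons, BAF complexes keep many enhancers open, together with the transcription factors bound there. Depolarization lets calcium into the neuron and switches on immediate early genes such as Fos, Egr1 and Npas4, whose products are themselves transcription factors that bind promoters and enhancers of later genes.

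The Smarcc2 gene itself checked the labels and was left out of every other result. Of its summits, 11 and 10 were over 100-fold in the wild-type add-back libraries and 1 and 1 in the vector libraries, on the authors' fold enrichment, and its best summit ranked 87.5 and 104.5 against 2880 and 2146.5 (tied summits share a mean rank). The gene stood higher in both add-back libraries; the knockout itself is not visible in peak lists. The wild-type add-back lists held 195838 and 198453 intervals that covered 84.3 and 86.0 Mb, and the vector lists 184093 and 162059 intervals that covered 81.2 and 72.0 Mb. The background level read from the lists was 2.02 and 2.07 reads per base in the wild-type add-back libraries and 1.78 and 1.94 in the vector libraries. These are the only measures of depth here, and they were all lower with vector, so that fewer accessible sites and a shallower or noisier library cannot be told apart. In bulk neurons, fewer cells with an open site and less opening per cell cannot be told apart either.

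Sites were compared by rank within each library. Every autosomal summit was ranked by the authors' −log10 p within its library, lists were cut to equal length, and a region of 500 bp received the rank score log2(233647/rank) of its best summit, or 0 with no summit. A rise of 1 means that the rank number was divided by 2, nearer to the top. Changes are wild-type add-back minus vector on this log2 scale, and calls are those with a limma p, adjusted by Benjamini-Hochberg over all 85143 regions tested, under 0.05. Library pairs were alike within a genotype, with Pearson's r across regions of 0.951 for wild-type add-back and 0.957 for vector, as a description over regions of the same genome. It was 0.913 to 0.931 between the genotypes. Each wild-type add-back library had an r of 0.949 to 0.956 with the depolarized non-targeting libraries, and each vector library one of 0.921 to 0.930.

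With wild-type Smarcc2, 2132 regions ranked higher (2.50% of those tested) and 168 ranked lower (0.197%), 2.70% in all, each with no overlap between the 2 pairs of libraries, which 51.2% of all tested regions also showed. The median change was 1.41 over the higher regions, with a range of 0.89 to 4.79, and it was −1.38 over the lower ones, with a range of −4.95 to −0.86. This excess of higher regions, 92.7% of all calls, depended on the scale and is not a count of sites opened. When the tested regions were ranked among themselves alone, 570 were higher (0.669%) and 489 lower (0.574%), 1.24% in all. With lists of 75000 summits 638 were higher (0.749%) and 758 lower (0.890%), 1.64% in all. Ranking whole intervals by their best summit, in lists of the top 75000 intervals, which changes the unit and the list length together, called 406 higher (0.477%) and 280 lower (0.329%), 0.806% in all. The calls also need both libraries of each pair: the total fell to 77 without wild-type add-back replicate 1, 733 without replicate 2, 596 without vector replicate 1 and 243 without vector replicate 2.

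The change followed distance from gene ends. Among 20327 regions at gene ends, within 1 kb of either end of a protein-coding gene, 80 were higher (0.394%) and 39 lower (0.192%), with a median change of −0.07. Among 53857 distal regions, up to 100 kb from the nearest gene end, 1559 were higher (2.89%) and 113 lower (0.210%), with a median of 0.14. Only the outer ends of a gene count here, so distal regions can lie at inner starts. Those near Camk1d and Kat5 were 125 and 251 bp from a RefSeq start. Among 10959 regions farther away, 493 were higher (4.50%) and 16 lower (0.146%), with a median of 0.33. The order of the medians (gene ends lowest, far regions highest) held in 18 of 20 settings (with lists of 75000 or 30000 summits the distal and far medians were both 0), and gene ends stood below distal regions in all 20. When regions were ranked among themselves alone, gene ends had a median of −0.10 with 33 higher and 107 lower, distal regions one of −0.002 with 410 and 331, and far regions one of 0.08 with 127 and 51.

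**Figure D1:**
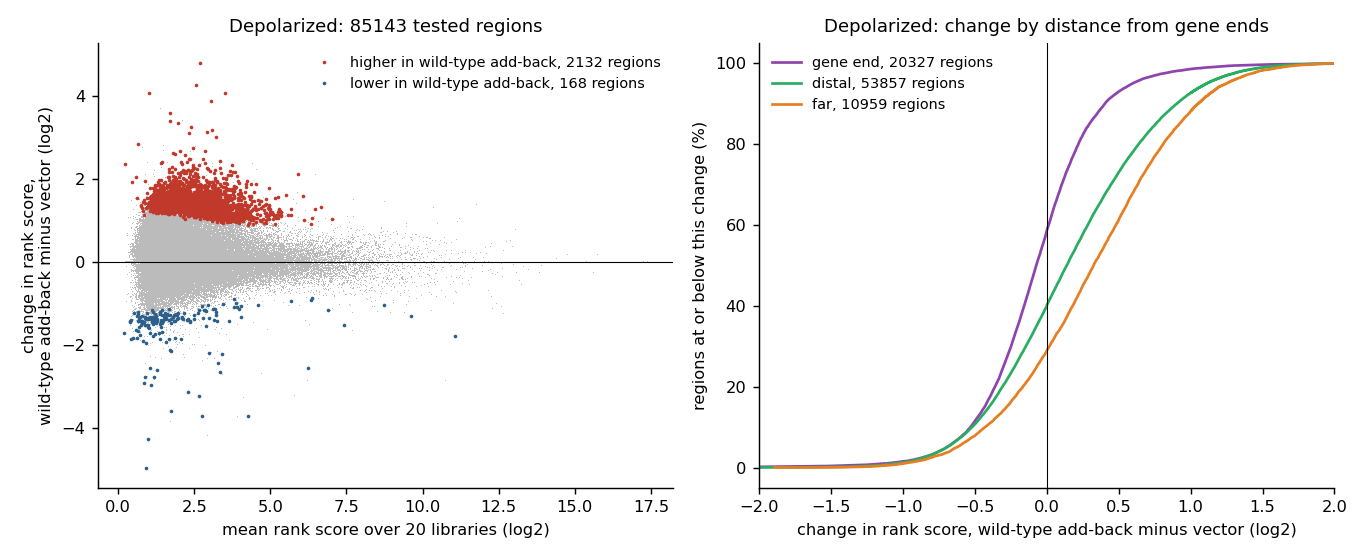
Left, change in rank score (log2, wild-type add-back minus vector, depolarized) against the mean rank score over 20 libraries for 85143 regions; red points are the 2132 called higher and blue points the 168 called lower. Right, cumulative share of regions (%) by change for regions at gene ends, distal and far; at their middle the curve of gene ends lies left of the distal curve, which lies left of the far curve, with medians of −0.07, 0.14 and 0.33.

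The make-up of the strongest sites showed the same tilt without any model. It was read from the same ranks of the same libraries, so it is another view of them and not separate support. Of the regions held by the top 75000 summits, 32.1% and 32.2% lay at gene ends in the wild-type add-back libraries and 35.2% and 35.3% in the vector libraries. The depolarized non-targeting libraries had 32.2% and 32.1%, near the wild-type add-back. In unstimulated neurons the shares were 27% in both libraries with wild-type Smarcc2, 30.1% and 31.0% with vector, and 25.7% and 26.8% with the non-targeting guide. The vector libraries were thus the highest in each state, with no overlap; a pair against a pair cannot reach a two-sided exact p under 0.05, so no test is given.

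**Figure D2:**
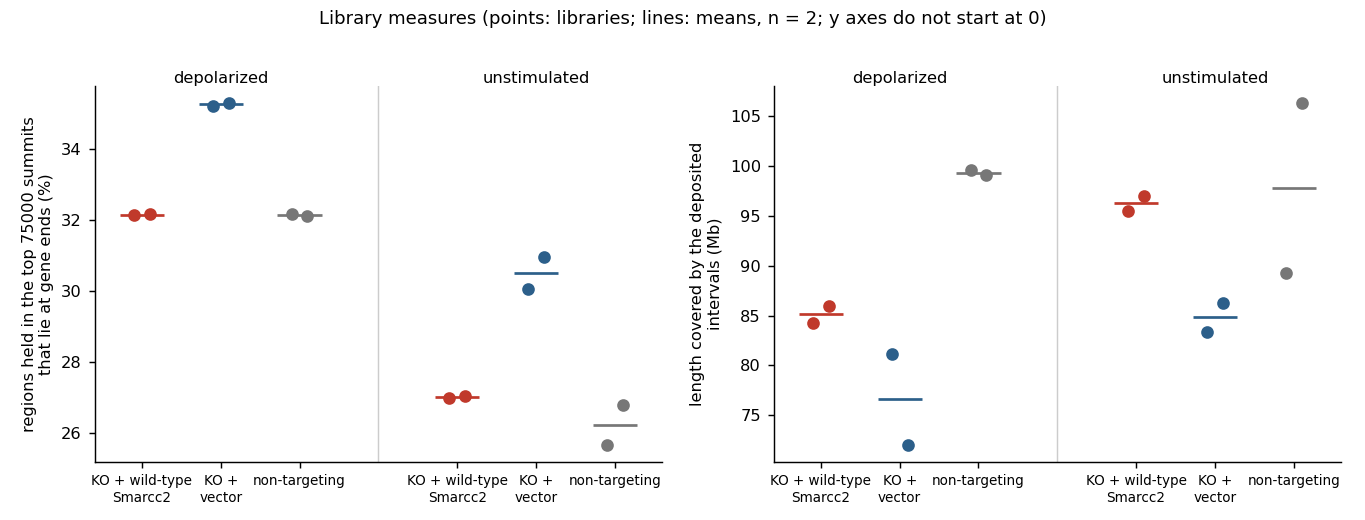
Left, share of held regions at gene ends (%) and, right, length covered by the deposited intervals (Mb) in each library, for knockout with wild-type Smarcc2, knockout with vector and non-targeting neurons, depolarized and unstimulated. Points are libraries and lines are means (n = 2); the vector libraries have the highest share at gene ends in both states, 35.2% and 35.3% when depolarized.

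The higher regions sat far from gene ends and in the middle of the list. Their median distance from the nearest gene end was 32.7 kb, against 6.47 kb for the lower regions and 9.78 kb for all tested regions. Of the higher regions, 51.6% lay inside a protein-coding gene, as did 56.5% of the lower and 60.6% of all tested regions. By mean rank score over the 20 libraries, the share called higher was 0.269% under a score of 1, 4.77% between 3 and 4, and 0.230% over 6. The share called lower was 0.564% under a score of 1 and between 0.062% and 0.263% in the higher classes. By chromosome, 2.06% to 3.42% of the tested regions of each autosome were called higher, with the highest share on chromosome 1. The difference between chromosomes was not tested.

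Most called regions had the same sign in unstimulated neurons, where no library is shared with the depolarized comparison. The measures of depth were lower with vector there too. The unstimulated vector lists held 195335 and 211660 intervals, with background levels of 1.99 and 1.69 reads per base. The unstimulated wild-type add-back lists held 231472 and 233013 intervals, with levels of 2.05 and 2.41. The part of depth in the shared sign was not tested. Of the 2132 higher regions, 2083 also ranked higher with wild-type Smarcc2 in the unstimulated libraries (97.7%), 945 of them past the threshold (44.3%), with a median change of 1.01. Over all tested regions, 53.3% had a positive change there, 4.86% were called higher and the median change was 0.05. Of the 168 lower regions, 151 had the same sign (89.9%) and 36 were called lower (21.4%), with a median change of −0.64; 1.36% of all tested regions were called lower. Across all regions the depolarized and the unstimulated change had a Pearson's r of 0.596, given as a description. In the unstimulated libraries wild-type add-back against vector called 4142 regions higher and 1157 lower (6.22% in all). Without 1 library at a time that total of 5299 fell to 1338 and 1523 (without wild-type add-back replicate 1 or 2) and to 1937 and 803 (without vector replicate 1 or 2).

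**Figure D3:**
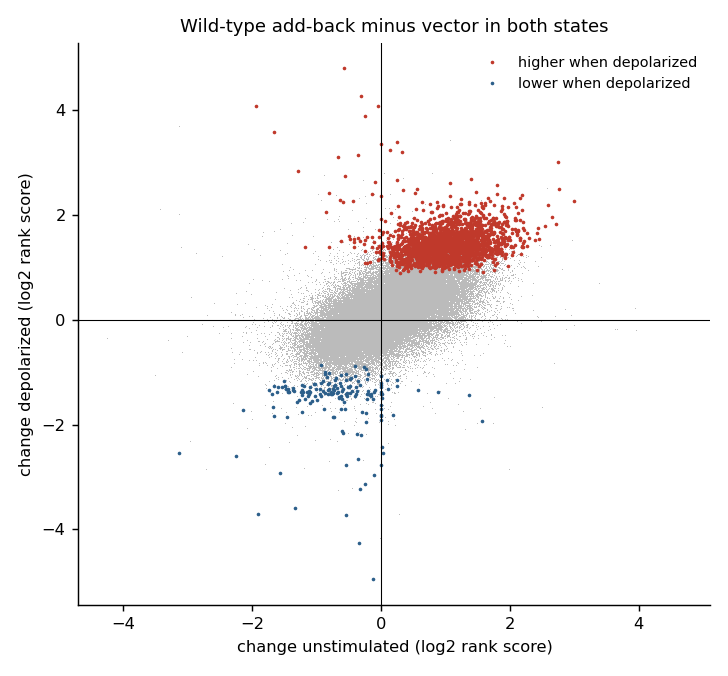
Change in rank score (log2, wild-type add-back minus vector) in depolarized neurons against the change in unstimulated neurons, 1 point per tested region; red regions were called higher and blue ones lower when depolarized. Most red points (2083 of 2132) lie right of 0 and most blue points (151 of 168) left of it.

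Levels of the called regions by library showed where the other genotypes stood. The median rank score of the 2132 higher regions was 2.65 and 2.51 in depolarized wild-type add-back libraries and 1.08 and 1.02 in depolarized vector libraries. It was 2.44 and 2.41 with the non-targeting guide, 2.59 and 2.52 with S586A and 2.47 and 2.41 with S586E. These regions were picked for being high in one pair and low in the other, so the depolarized levels are a description. In unstimulated neurons, which did not pick them, the median was 2.99 and 2.88 with wild-type Smarcc2, 3.23 and 3.06 with the non-targeting guide, and 1.94 and 1.82 with vector. Of the higher regions, none lacked a summit in either depolarized wild-type add-back library, while 12.9% and 15.0% lacked one in the vector libraries. The median of the 168 lower regions was 0.87 and 1.10 with wild-type Smarcc2 and 2.61 and 2.58 with vector when depolarized. The non-targeting libraries lay between at 1.77 and 1.71. In unstimulated neurons it was 1.27 and 1.43 with wild-type Smarcc2, 1.38 and 1.36 with the non-targeting guide, and 2.19 and 2.16 with vector.

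**Figure D4:**
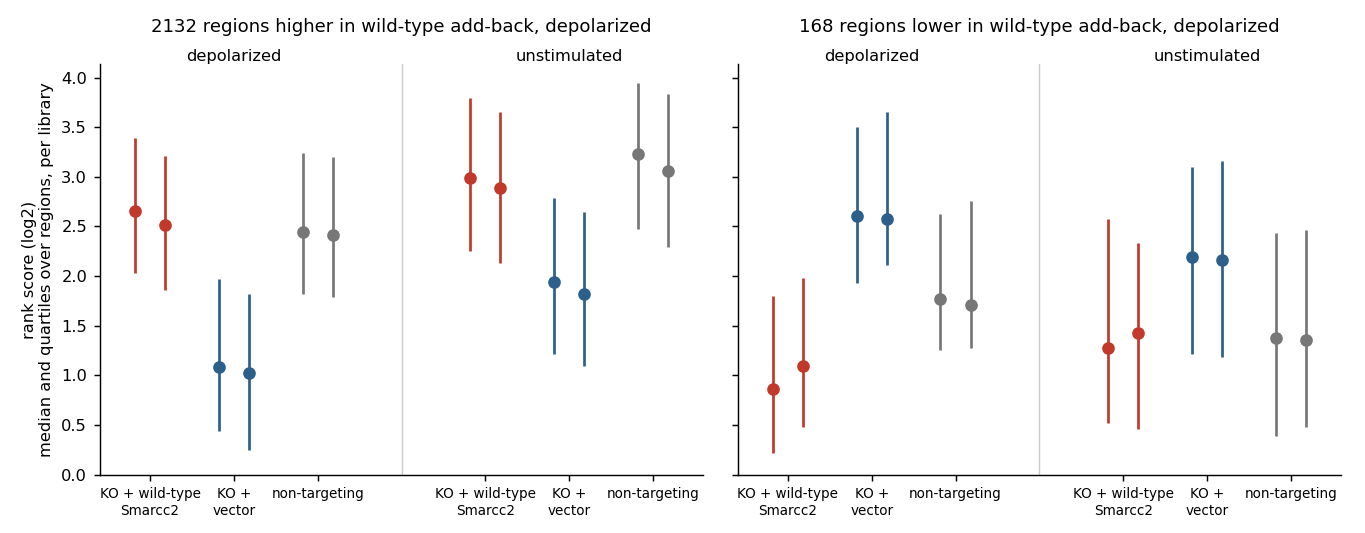
Rank score (log2) of the 2132 regions called higher (left) and the 168 called lower (right) in depolarized wild-type add-back, shown per library as median (point) and quartiles (line) over regions, for knockout with wild-type Smarcc2, knockout with vector and non-targeting neurons. In unstimulated libraries, which did not choose the regions, the higher regions had medians of 2.99 and 2.88 with wild-type Smarcc2 and 1.94 and 1.82 with vector.

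Of the 2300 called regions, 428 were also called with the same sign when whole intervals were ranked: 376 higher and 52 lower. Only 13 of them lay at gene ends, against 322 distal and 93 far regions, and 423 of the 428 had the same sign in unstimulated neurons. A positive unstimulated change was seen in 53.3% of all tested regions. The 12 largest changes in each direction were taken among those with a summit in all 4 libraries, no overlap between the pairs and a named gene within 100 kb. The plot shows those that are named here by library. These regions, and the promoters below, were chosen after their values were seen, and a gene named for a region is the nearest by distance and not a known target.

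**Figure D5:**
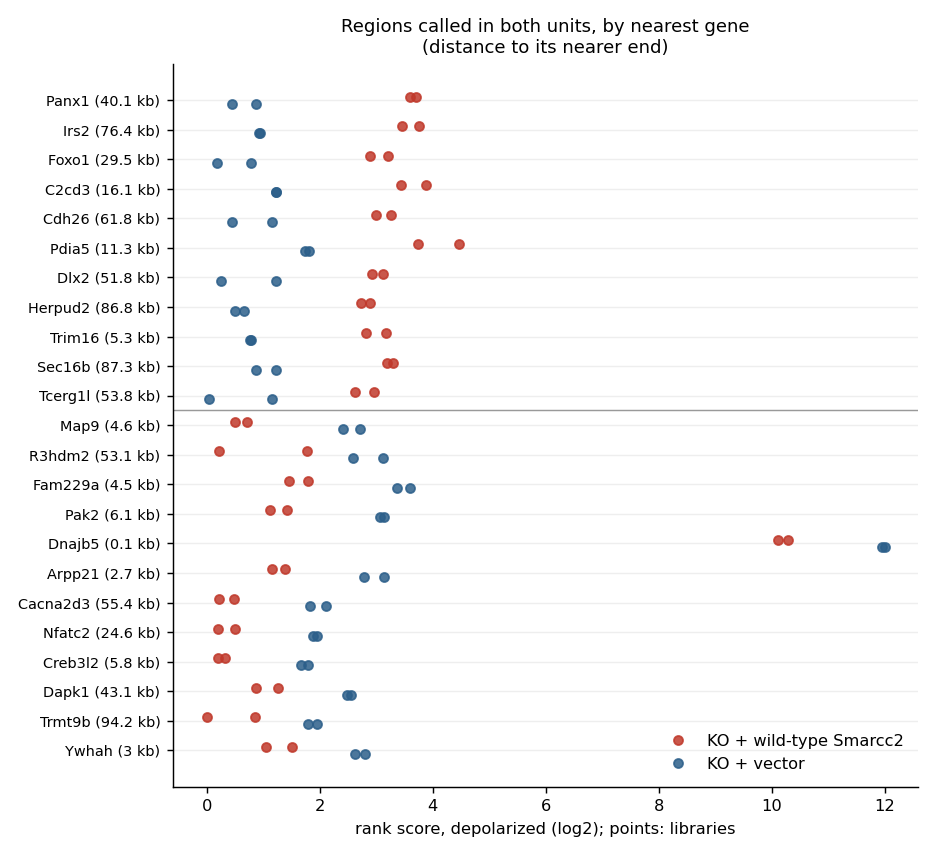
Rank score (log2) in each depolarized library of regions called in both units (summits and intervals), higher ones above the line and lower ones below, named by the nearest gene with the distance to its nearer end. Red points are knockout with wild-type Smarcc2 and blue points knockout with vector. The pairs do not overlap in any region shown, as the choice of regions required.

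The largest of these lay 40.1 kb from Panx1, which encodes a channel that releases ATP from cells (mm10, chr9:14965398-14965897, outside protein-coding genes). Its rank score was 3.70 and 3.60 with wild-type Smarcc2 and 0.44 and 0.86 with vector, a change of 3.00 ± 0.265 (SE, n = 2 each; limma, adjusted p = 1.21e-06). The unstimulated values were 3.94 and 4.01 with wild-type Smarcc2 and 1.28 and 1.18 with vector. A region 76.4 kb from Irs2, the adaptor that relays insulin and IGF-1 receptor signals (chr8:11085127-11085626), had 3.76 and 3.46 against 0.93 and 0.94 (2.68 ± 0.38, adjusted p from limma 0.00106). Another inside Foxo1, a forkhead transcription factor held back by that pathway (chr3:52297569-52298068), had 2.89 and 3.21 with wild-type Smarcc2 against 0.18 and 0.78 with vector (2.57 ± 0.42, adjusted p from limma 0.00329). In all 3 the wild-type add-back libraries lay more than 2 units above the vector libraries. In ranks, the Irs2 region stood at 17212 and 21216 with wild-type Smarcc2 and at 122874 and 121500 with vector.

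Further distal regions gave a similar picture near genes of other roles. The region inside C2cd3, which is needed to build cilia (chr7:100388102-100388601), had 3.87 and 3.44 with wild-type Smarcc2 and 1.22 and 1.23 with vector. The region 11.3 kb from Pdia5, an endoplasmic reticulum enzyme that forms disulfide bonds (chr16:35385737-35386236), had 4.46 and 3.74 against 1.74 and 1.82. The other higher regions of the plot lay near Cdh26, Dlx2, Herpud2, Trim16, Sec16b and Tcerg1l, with changes of 2.19 to 2.33. Of the 12, 7 kept their call whichever library was left out (near Panx1, Irs2, Foxo1, C2cd3, Cdh26, Pdia5 and Herpud2). The other 5 lost it without at least 1 library, among them Sec16b, Trim16 and Dlx2 without wild-type add-back replicate 1 (adjusted p 0.0513 to 0.0861 in limma), and Dlx2 and Tcerg1l without vector replicate 2 (0.0893 and 0.0587 in limma). All had a positive change in these fits, which was fixed in advance because the regions were chosen with pairs that do not overlap.

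The lower regions of the plot were fewer in the whole set and less firm. A region inside Map9, a microtubule-associated protein (chr3:82362394-82362893), had 0.49 and 0.71 with wild-type Smarcc2 and 2.42 and 2.70 with vector (−1.96 ± 0.38, adjusted p from limma 0.00844), while the unstimulated libraries had 0.77 and 0 against 0.76 and 0.46. A region 6.1 kb from Pak2, a kinase activated by Rac and Cdc42 (chr16:32009924-32010423), had 1.11 and 1.41 against 3.13 and 3.07, and 1.59 and 1.55 against 3.04 and 3.42 in unstimulated neurons. A region inside Arpp21, a neuronal phosphoprotein regulated by cAMP (chr9:112233366-112233865), had 1.38 and 1.15 against 2.79 and 3.14. The others lay near R3hdm2, Fam229a, Dnajb5, Cacna2d3 (a calcium channel subunit), Nfatc2 (a transcription factor activated by calcineurin), Creb3l2, Dapk1, Trmt9b and Ywhah. None of the 12 kept its call with every library left out in turn: 0 were called without wild-type add-back replicate 1, 5 without its replicate 2, 4 without vector replicate 1 and 1 without vector replicate 2. The changes ran from −2.64 to −1.02 in these fits. Their sign could not reverse, because these regions were chosen with pairs that do not overlap.

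A smaller share of regions was called higher at gene ends (0.394%) than among distal regions (2.89%), while the shares called lower were 0.192% and 0.210%. The called changes were of similar size, with medians of 1.44 and −1.44 at gene ends and 1.41 and −1.38 in distal regions. The strongest called promoters are shown with their sequences so that the 2 directions can be set side by side. The 3 strongest in each direction were those with the highest mean rank score among called regions centred within 500 bp of a RefSeq start, with a change over whole intervals of the same sign and of more than 0.5 times the size. Each sequence is the RefSeq window of the GRCm38.p6 build (mm10), 250 bases before to 50 after the start, 5′ to 3′ along the gene; capitals mark matches on either strand to an AP-1 site (TGANTCA), a GC box (GGGCGG) or a CCAAT box (CCAAT). The cAMP response element (TGACGTCA) was searched too and has no match in these windows. No 2 of the motifs overlapped in them. The higher promoters come first.
Mavs (chr2:131233813-131234112, plus strand): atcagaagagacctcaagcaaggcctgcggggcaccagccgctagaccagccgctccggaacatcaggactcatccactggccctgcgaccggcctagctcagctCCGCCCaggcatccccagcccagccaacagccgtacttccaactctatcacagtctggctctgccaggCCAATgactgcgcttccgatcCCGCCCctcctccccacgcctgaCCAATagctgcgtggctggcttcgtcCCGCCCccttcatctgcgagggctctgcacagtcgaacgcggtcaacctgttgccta
Sbno2 (chr10:80075390-80075689, minus strand): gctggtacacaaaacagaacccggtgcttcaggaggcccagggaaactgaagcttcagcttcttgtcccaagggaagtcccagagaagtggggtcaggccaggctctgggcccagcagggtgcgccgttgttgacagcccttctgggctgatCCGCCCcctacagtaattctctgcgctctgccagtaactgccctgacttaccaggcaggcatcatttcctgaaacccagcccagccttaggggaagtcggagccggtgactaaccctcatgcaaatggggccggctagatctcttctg
Frmd4a (chr2:4559504-4559803, plus strand): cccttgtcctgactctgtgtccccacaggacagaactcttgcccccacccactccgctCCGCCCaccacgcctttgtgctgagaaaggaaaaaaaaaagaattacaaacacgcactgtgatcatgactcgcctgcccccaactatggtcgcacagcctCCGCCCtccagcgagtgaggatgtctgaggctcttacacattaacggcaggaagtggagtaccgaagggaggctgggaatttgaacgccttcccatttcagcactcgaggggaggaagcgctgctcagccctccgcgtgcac
Dnajb5 (chr4:42949617-42949916, plus strand): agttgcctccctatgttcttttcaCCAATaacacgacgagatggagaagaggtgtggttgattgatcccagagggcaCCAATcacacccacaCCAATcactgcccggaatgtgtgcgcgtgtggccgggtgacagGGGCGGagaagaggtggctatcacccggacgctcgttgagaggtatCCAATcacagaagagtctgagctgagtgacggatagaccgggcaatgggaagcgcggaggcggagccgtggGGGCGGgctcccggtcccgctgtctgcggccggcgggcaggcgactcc
Rtn4 (chr11:29692648-29692947, plus strand): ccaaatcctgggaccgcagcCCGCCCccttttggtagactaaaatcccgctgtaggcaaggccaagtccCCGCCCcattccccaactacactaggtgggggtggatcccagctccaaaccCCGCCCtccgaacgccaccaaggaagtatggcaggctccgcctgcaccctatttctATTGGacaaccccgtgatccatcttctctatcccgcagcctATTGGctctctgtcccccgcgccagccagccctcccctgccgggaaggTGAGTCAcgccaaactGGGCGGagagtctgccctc
Syncrip (chr9:88482348-88482647, minus strand): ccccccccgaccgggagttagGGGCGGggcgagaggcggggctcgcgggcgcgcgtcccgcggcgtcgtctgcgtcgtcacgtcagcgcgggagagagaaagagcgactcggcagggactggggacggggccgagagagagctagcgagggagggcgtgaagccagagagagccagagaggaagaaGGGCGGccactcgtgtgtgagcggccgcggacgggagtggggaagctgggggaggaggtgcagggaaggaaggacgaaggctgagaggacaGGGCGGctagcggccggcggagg

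Dnajb5, a co-chaperone of Hsp70, had the strongest promoter of the 6. It ranked 187 and 212 with wild-type Smarcc2 and 59 and 57 with vector (a change in rank score of −1.78 ± 0.38, adjusted p from limma 0.0156; −1.88 over intervals). Without KCl the scores were 11.11 and 10.67 with wild-type Smarcc2 and 11.18 and 11.07 with vector, a change of −0.23; the difference between the states did not pass its own test. Rtn4, which encodes the neurite growth inhibitor Nogo, had 8.16 and 8.49 against 9.45 and 9.27. Syncrip, an RNA-binding protein of the hnRNP Q type, had 6.00 and 5.84 against 7.04 and 6.63. In the other direction, Mavs, the mitochondrial adaptor of antiviral RNA sensing, had 6.51 and 6.63 with wild-type Smarcc2 and 5.65 and 5.46 with vector. An inner start of Sbno2 had 4.63 and 4.96 against 3.70 and 3.68, and an inner start of Frmd4a 4.08 and 4.12 against 3.05 and 2.96. All 6 pairs were apart, as in every called region, and the 6 changes lay between −1.78 and 1.10. None of the 6 was called once any 1 of the 4 libraries was left out (adjusted p 0.0772 to 0.312 in limma), so each needs both pairs.

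Over all promoters, the motif counts are a description with few members. Of 31 promoters with a called higher region within 250 bp of their start, 9 held an AP-1 match, 1 a cAMP response element, 9 a GC box and 13 a CCAAT box. Of 8 with a called lower region, the counts were 1, 0, 5 and 4. Of all 10192 promoters with a tested region, 5.43%, 3.32%, 64.7% and 38.5% held these motifs. Of all 31396 autosomal promoters available, 7.84%, 1.83%, 36% and 37.3% did. No promoter of chromosome 18 was available for these counts. The median GC content was 51.3% for the higher promoters, 60.2% for the lower ones and 61.3% for all with a tested region. Distal sequences were not used here.

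At the promoters and ends of the classic activity genes, the strongest region of each gene did not pass the test in either direction. Fos had 11.12 and 10.02 with wild-type Smarcc2 and 10.32 and 9.57 with vector (0.62 ± 0.33, adjusted p from limma 0.333). Egr1 had 11.93 and 12.70 against 10.64 and 12.08 (0.96 ± 0.46, adjusted p from limma 0.289). Npas4 had 8.23 and 9.47 against 7.58 and 8.56 (0.78 ± 0.44, adjusted p from limma 0.382). The pairs overlapped at Fos, Egr1 and Npas4. Fosb, Junb, Arc, Nr4a1 and Bdnf had changes of 0.61, −0.27, 0.05, −0.05 and −0.08. Without KCl, Fos had 4.83 and 5.39 with wild-type Smarcc2 and 4.93 and 5.24 with vector, and Npas4 had a score of 0 in all 4 libraries. Egr1 was already near the top without KCl, with 10.54 and 10.37 against 9.56 and 10.19.

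In all but 3 of the 12 largest changes in each direction (Panx1, Egr2 and Kat5), at least 1 of the 4 libraries had an interval over the window with its summit elsewhere. Some of these windows lay near activity genes. A window 0.2 kb from an end of Egr3, an activity-induced zinc finger factor (chr14:70077287-70077786), had 4.98 and 4.60 with wild-type Smarcc2 and 0 and 0 with vector. Both vector libraries had such an interval there, and over whole intervals the change was 0.16 (limma, adjusted p = 0.98). The windows near Gadd45b, Camk1d, Odr4, Hmgcs1, Nr1d1, Tnrc6c, Tmem123, Med26 and Ddit4 also had 0 in both vector libraries while both held an interval there. In the other direction, windows near Nr4a1 (0 and 0 against 5.21 and 4.69) and Egr4 (0 and 0 against 4.37 and 4.15) had no summit with wild-type Smarcc2, and over intervals the changes were 0.64 and −0.52, neither called. Egr2 (3.19, and 0.11 over intervals) and Kat5 (−3.58, and −0.09 over intervals) moved without any such gap. Of the 12 largest changes in each direction, the Panx1 region was the only one also called over intervals, and 5 of the 12 higher and 3 of the 12 lower kept their call whichever library was left out. Of all called regions, 38 of the 2132 higher and 33 of the 168 lower had an interval without a summit in at least 1 of the 4 libraries, and setting aside windows with such an interval in any of the 8 libraries of both states gave 2499 higher and 181 lower.

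Gene lists were written with earlier results of these data known, and their counts stand beside 0.394% higher and 0.192% lower over all regions at gene ends, and 2.89% and 0.210% over all distal regions. Near 45 early activity genes, 2 of 161 regions at gene ends were higher and 1 lower, and 8 of 472 distal regions were higher and 3 lower, with medians of −0.05 and −0.001 against −0.07 and 0.14 over all regions of those kinds. Near 35 late activity genes, 0 of 56 regions at gene ends were called and 5 of 258 distal regions were higher, led by one 9 kb from Sst, the neuropeptide somatostatin, with 3.84 and 3.35 against 2.15 and 1.86. Near 32 genes of synapses and excitability, 0 of 58 regions at gene ends were higher and 1 lower, and 3 of 308 distal regions were higher and 2 lower. One 32.1 kb from Syn2, a synaptic vesicle protein, had 1.71 and 0.64 against 2.52 and 2.58. Near 30 genes of BAF, PBAF and ncBAF subunits, 0 of 55 regions at gene ends were called and 3 of 183 distal regions were higher, with one inside Ss18, a BAF subunit, at 3.82 and 4.05 against 2.82 and 2.08. The calls near Sst, Syn2 and Ss18 were each lost without at least 2 of the 4 libraries in turn (adjusted p up to 0.318 in limma).

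Near markers of cell types, most distal regions did not pass the test. The median distal change was 0.28 near inhibitory neuron genes (3 of 56 higher), 0.26 near progenitor genes (4 of 94), 0.23 near astrocyte genes (3 of 104), 0.20 near oligodendrocyte lineage genes (2 of 62) and 0.26 near vascular and meningeal genes (5 of 41), with 0 lower in each. Near microglia genes it was 0.07, with 1 of 20 higher and 1 lower. It was −0.11 near excitatory neuron genes (2 of 181 higher) and −0.25 near housekeeping genes (2 of 83 higher), with 0 lower in each. These stand beside 0.14 and 2.89% higher over all distal regions. Ranked among the regions alone, these medians were 0.07, 0.06, 0.02, 0.009, 0.09, −0.01, −0.15 and −0.28, beside −0.002 for all distal regions. At gene ends, excitatory neuron genes had regions for 18 of 20 genes, with a median rank score of 2.70 and 2.56 in wild-type add-back libraries and 2.87 and 2.96 in vector libraries. Astrocyte genes had them for 12 of 16, with 2.25 and 2.17 against 2.02 and 2.38, and microglia genes for 4 of 15. Of 41 regions at the ends of housekeeping genes, 1 was lower, inside Eef1a1, a translation elongation factor, with 4.85 and 4.64 against 7.11 and 7.48. The part of a changed cell mixture in the higher distal regions was not tested.

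In each list the region with the smallest p in each direction was taken, which shows the extremes and not the list. One 8.2 kb from an end of Cspg4, the NG2 proteoglycan of oligodendrocyte precursors and pericytes (chr9:56873087-56873586), had 3.65 and 3.48 with wild-type Smarcc2 and 1.69 and 1.41 with vector (2.02 ± 0.33, adjusted p from limma 0.00299). One 35.8 kb from Hes1, a Notch target that keeps progenitors undifferentiated (chr16:30029284-30029783), had 3.03 and 2.79 against 1.29 and 1.29. One inside Cdh5, the cadherin of endothelial junctions (chr8:104127140-104127639), had 3.63 and 3.42 against 1.63 and 1.86. One 85.4 kb from Neurod6, a factor of excitatory cortical neurons (chr6:55592189-55592688), had 3.44 and 3.03 against 2.19 and 0.94, and 4.70 and 4.25 against 2.53 and 2.73 in unstimulated neurons. Without wild-type add-back replicate 1 the adjusted p of these 4 was 0.0729, 0.0775, 0.138 and 0.19 in limma, with the sign unchanged. The call at Cdh5 was also lost without either vector library (0.0794 and 0.0627), and that at Neurod6 without vector replicate 2 (0.276). In the other direction, the region with the lowest p did not pass near Mbp (−1.17), Neurod2 (−1.15), Calb2 (−1.11), Slc1a3 (−1.0), Col1a1 (−0.96) or Hes1 (−0.59).

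Several genes had more than 1 called region. Of 14904 genes with a tested region, 1424 had at least 1 higher and 147 at least 1 lower region, and 17 had both. Only 14 genes had 3 or more higher regions, and Prune2 (4 of 10) and Smoc2, a secreted matrix protein (4 of 11), had the most. Flt1, a VEGF receptor, had 3 of 6. Arpp21 and Kif13b had 2 lower regions each.

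The add-back effect was tested for a difference between the states, and few regions passed. With 2 libraries per group, few calls do not show that the effect was alike in both states. The test of the difference called 9 of 85143 regions (0.0106%), 5 with a positive difference, depolarized change minus unstimulated change (0.00587%), and 4 with a negative one (0.00470%). Over intervals it called 29 (0.0341%), and with windows set aside that an interval covered without a summit it called 1. A larger count came from lists of 75000 summits, 248 (0.291%). No region is therefore described as specific to depolarized neurons.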

How the data were processed

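The deposited files are 1 peak list per library. The tools named in the submitters' processing notes are MACS2, Bowtie2, Picard, SAMtools, Trim Galore, bedtools and FastQC, without versions, and the build is mm10. Each line is a summit with the authors' fold (a ratio of pileup to 1 background level per library), −log10 p and −log10 q; the deposited score column, −log10 p times 10, was not used. From the steps of the deposited fold the background level was recovered (pileups whole within 0.02 for 100% of summits under 50-fold). No read counts were used, so depth is otherwise unknown and no counting interval is given.

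Summits on 19 autosomes outside the Smarcc2 gene were ranked by −log10 p, with mean ranks for ties. Lists were cut to 233647 summits, the shortest of 20 (set by unstimulated S586E replicate 1). Windows of 500 bp on the top 75000 summits of any library, best rank first and not overlapping, gave 97786 regions, of which 85143 held by at least 2 libraries were tested. Limma 3.58.1 (R 4.3.3) fitted 10 group means over 20 libraries with a variance trend; the script was checked on simulated data. Genes came from the RefSeq table of GRCm38.p6 (20665 autosomal protein-coding genes).

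The comparison, the lists and the named regions were chosen with earlier results of these data known. Named regions were the 12 largest called changes in each direction without overlap and with a gene within 100 kb, the 6 largest at gene ends in each direction, the strongest region at an end of 8 activity genes, and the smallest p per list and direction; regions called in both units and the 6 promoters were added after values were seen. Some regions that these rules select are not reported here. Replicate numbers are shared by the groups, but a pairing of 2 is not enough to call them paired. Alternatives are listed in the closing section.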

Additional observations from a re-analysis of the deposited data

Results flagged for a closer look

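The change made by the add-back differed between depolarized and unstimulated neurons in 9 regions, by the test of that difference in limma. The difference (depolarized change minus unstimulated change, log2 rank score) was 5.36 near Egr3, 4.14 near Gadd45b, 4.11 near Camk1d, 3.49 near Odr4 and 3.28 near Sfpq. It was −4.83 near Nr4a1, −3.75 near Aco1, −3.06 near Tbc1d12 and −2.65 near Brf1. In 8 of the 9, all but Brf1, 2 of the 8 libraries had an interval over the window with its summit elsewhere.

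The Smarcc2 gene, left out of the ranking, carried 11 summits over 100-fold in depolarized wild-type add-back replicate 1 and 10 in replicate 2, against 1 and 1 with vector.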

How the results depend on the processing

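Depolarized, the total of 2300 called regions was 686 over intervals (the top 75000), 1396 with lists of 75000 summits, 442 with lists of 30000, 7333 on linear ranks, 1451 with 250 bp windows, 1059 ranked among the regions alone (chosen after seeing the data), and 77 to 733 without 1 library at a time, where the lone library of a pair is assumed to vary like the other groups. The share of higher calls among all calls, 92.7%, was 59.2% over intervals, 45.7% with lists of 75000, 33.9% with lists of 30000 and 53.8% among the regions alone. Unstimulated, 5299 became 2853 over intervals, 1970 with lists of 30000, 3324 with regions held by at least 10 libraries, 3416 with 250 bp windows, and 803 to 1937 without 1 library at a time. The 9 differences between states became 29 over intervals, 248 with lists of 75000, 139 with lists of 30000, 54 on linear ranks, 27 with 250 bp windows, 23 in a fit of 8 libraries, 1 with covered windows set aside (chosen after seeing the data), and 9 to 24 without 1 library at a time. The cause was not tested, other than that fewer libraries entered the last.

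Of 65 called named regions, 309 of 1181 values under alternatives fell below the threshold with the same direction or at 0. The sign reversed over intervals at Sema6d (0.27), Nr1d1 (−0.32), Tnrc6c (−1.23), the Nr4a1 window (0.64), Usp16 (0.27) and Rab5a (0.24), and with 250 bp windows at Cdca7l (0.29) and Usp16 (1.41). Among regions never called, it reversed over intervals at Junb (1.28) and the lower Hes1 region (0.22), with a background covariate at Arc (−0.014), and without 1 library in turn, with ranges of −0.36 to 0.19 at Bdnf (also 0.03), −0.76 to 0.23 at Junb, −0.50 to 0.61 at Arc (also −0.41) and −0.20 to 0.10 at Nr4a1 (also 0.02).

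With a replicate block the counts were 3944 depolarized, 8244 unstimulated and 12 for the difference. The replicate differences of the 2 depolarized groups had an r of 0.101, against 0.037 to 0.193 over 45 pairs of groups, so the shared numbers do not establish pairs. Depth is known only from the lists and its part in the counts was not tested; with the background level or the number of intervals as a covariate, 3393 and 3133 regions were called when depolarized.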

Other observations

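Of 9 regions lower and 35 higher in every add-back library than in every other library, in both states, 1 inside Eef1a1 had the widest gap. This comparison was looked for after seeing the data. In the window inside Eef1a1, 0.7 kb from its nearer end (chr9:78480759-78481258), the 12 libraries with wild-type, S586A or S586E Smarcc2 had rank scores of 4.64 to 5.85, and the 8 non-targeting and vector libraries 7.11 to 8.47. In depolarized neurons it had 4.85 and 4.64 with wild-type Smarcc2 and 7.11 and 7.48 with vector (−2.55 ± 0.25, adjusted p from limma 7.92e-06, and 0.000116 to 0.000678 without 1 library at a time). The gap of 1.26 between the sets compares with 0.08 for the next of 9 regions lower in all 12 add-back libraries, near Tgfb2. Of 35 regions higher in all 12, the widest gaps were 0.39 near Lbh and 0.36 near Clu. Over whole intervals the change at Eef1a1 was −0.89 and not called (adjusted p from limma 0.185).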
